A study of Mus musculus with 2 samples.

Results

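The transcription factor genes Sox4, Sox9, Sox11, Onecut1, Foxa2 and Gata6 were followed through the cell groups of the embryonic mouse pancreas. They are 6 of the 25507 gene symbols in the deposited count tables, taken by name, and all 6 had a row in both tables and passed the filter on low counts that left 10626 genes for testing. The cells came from wild-type mouse pancreas at mid-gestation (E14.5), and the labels describe them as islet cells. Flow sorting had taken cells of low and of high Ngn3eGFP, a green fluorescent reporter of the gene Neurog3, and they were profiled in 2 inDrop libraries. inDrop captures single cells in droplets and gives each captured RNA a random tag, the unique molecular identifier (UMI), so that a UMI count is a count of captured molecules. Every group described below carries the same wild-type genotype, stage and sort, and the labels do not say which cells were in which sort gate or whether the libraries came from separate embryos.

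Cells were grouped by their raw UMIs for 8 marker genes, per library. Spp1+ cells (at least 5 UMIs of Spp1, a gene of the trunk and duct epithelium, and fewer than 3 of Neurog3 and of Chgb) numbered 89 in library 1 and 188 in library 2. Neurog3+ cells (at least 3 UMIs of Neurog3, the factor that starts endocrine differentiation, and fewer than 3 of Chgb) numbered 113 and 180. Neurog3+Chgb+ cells (at least 3 UMIs of each) numbered 10 and 16. Chgb+ cells (at least 3 UMIs of the granule gene Chgb and fewer than 3 of Neurog3) numbered 95 and 150. Cells with at least 5 UMIs of the glucagon gene Gcg (Gcg+, 29 and 56) or at least 20 UMIs of the insulin genes Ins1 and Ins2 together (Ins+, 39 and 99) were taken out first. So were those with at least 5 UMIs of the acinar gene Cpa1 (Cpa1+, 9 and 85) or at least 2 of the macrophage gene Csf1r (Csf1r+, 7 and 35). The remaining 123 and 257 cells met no gate, and 1 and 4 cells met more than 1 of these last gates and were left out.

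Library 1 held 535 barcodes with 1910588 UMIs and library 2 held 1100 barcodes with 3425983 UMIs. Filters and doublet removal left 515 and 1070 cells, and 3 of the kept barcodes occurred in both libraries. Within each group the 2 libraries differed by more than counting noise, with a chi-square per degree of freedom of 1.72 to 2.36. Listed markers were highest in the group they belong to, except those of Chgb+ cells. The 9 trunk and duct markers used summed to 2700 and 3031 CPM (counts per 1e6 UMIs of the group) in Spp1+ cells of libraries 1 and 2, and the 10 progenitor markers to 5132 and 5784 CPM in Neurog3+ cells. The 10 endocrine markers summed to 5331 and 7163 CPM in Chgb+ cells, and to between 5019 and 6674 CPM in Gcg+ and Ins+ cells, so they do not set Chgb+ cells apart from these. The 10 immune markers summed to 7133 and 7847 CPM in Csf1r+ cells. The beta cell factor gene Mafa was at 0 in Ins+ cells.

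In the developing pancreas, multipotent epithelium is patterned into tips, which give acinar cells, and a trunk, which gives ducts and, through a transient Neurog3-expressing progenitor, the hormone cells of the islets. Sox9 is kept on in the trunk and duct epithelium, and Onecut1 (also called Hnf6) acts upstream of Neurog3 there. Sox4 and Sox11 are closely related SOX factors of the same subgroup, Foxa2 is a forkhead factor that opens chromatin in foregut endoderm and its derivatives, and Gata6 is a zinc-finger factor needed for pancreas formation.

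On GRCm38, Sox4 lies on chromosome 13 (28948919 to 28953713, minus strand), where a long non-coding gene, Gm26735, overlaps it on the other strand. Sox9 lies on chromosome 11 (112782224 to 112787760, plus strand) and Sox11 on chromosome 12 (27334264 to 27342574, minus strand). Onecut1 lies on chromosome 9 (74861921 to 74891781, plus strand) with the non-coding gene Gm20649 on the same strand. Foxa2 lies on chromosome 2 (148042877 to 148046969, minus strand). Gata6 is overlapped on the other strand by 1010001N08Rik. Whether counting was strand-specific is not given in the sources used here, so reads of Sox4, Onecut1 and Gata6 may include some of the overlapping gene.

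The 250 bases before the annotated start are shown for Sox4, Sox11, Onecut1 and Foxa2, because their levels are set below against the cell's Neurog3 count and Neurog3 belongs to the basic helix-loop-helix family, whose members bind E-boxes. The sequences are from RefSeq (GRCm38.p6), 5′ to 3′ on the strand of the gene, and capitals mark each E-box, spelled CANNTG, which reads as the same pattern on both strands. Of the 6 genes 4 were matched in the table. The windows are chr13:28953700-28953949 (minus strand) for Sox4, chr12:27342719-27342968 (minus strand) for Sox11, chr9:74861671-74861920 (plus strand) for Onecut1 and chr2:148046970-148047219 (minus strand) for the farthest upstream of the 3 listed Foxa2 starts.
Sox4: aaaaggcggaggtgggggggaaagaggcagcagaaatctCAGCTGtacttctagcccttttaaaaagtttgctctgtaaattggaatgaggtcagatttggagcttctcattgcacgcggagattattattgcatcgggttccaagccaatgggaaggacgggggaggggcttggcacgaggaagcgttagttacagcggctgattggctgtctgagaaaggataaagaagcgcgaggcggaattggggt
Sox11: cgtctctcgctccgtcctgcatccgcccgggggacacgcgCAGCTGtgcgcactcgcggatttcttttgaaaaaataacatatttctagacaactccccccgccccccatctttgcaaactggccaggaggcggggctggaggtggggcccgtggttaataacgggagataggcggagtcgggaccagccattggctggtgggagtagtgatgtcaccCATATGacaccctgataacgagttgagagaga
Onecut1: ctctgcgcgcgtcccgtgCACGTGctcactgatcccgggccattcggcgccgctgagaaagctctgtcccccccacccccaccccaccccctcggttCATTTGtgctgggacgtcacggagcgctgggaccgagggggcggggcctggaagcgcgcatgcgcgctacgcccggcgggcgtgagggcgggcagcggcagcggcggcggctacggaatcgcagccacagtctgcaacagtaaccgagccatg
Foxa2: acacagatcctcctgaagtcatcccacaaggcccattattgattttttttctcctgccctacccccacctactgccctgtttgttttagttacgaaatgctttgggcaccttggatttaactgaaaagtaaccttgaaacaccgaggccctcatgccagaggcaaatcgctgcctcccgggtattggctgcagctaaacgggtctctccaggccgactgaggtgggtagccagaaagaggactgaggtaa
The Sox4 window held 1 E-box, beginning 211 bases before the start, and the Sox11 window held 2, beginning 210 and 32 bases before it. The Onecut1 window held 2, beginning 232 and 153 bases before the start, and the Foxa2 window shown held 0. Of the other Foxa2 windows 1 held an E-box, beginning 223 bases before its start. An E-box of this loose spelling is in 66.2% of the 32536 promoter windows of this length in the RefSeq table, so its presence is common. The core that SOX factors bind, spelled ACAAT or on the other strand ATTGT, was in 0 of the 4 windows and in 27.4% of all windows. A match is a description of the letters in these windows and says nothing of binding.

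**Figure D1:**
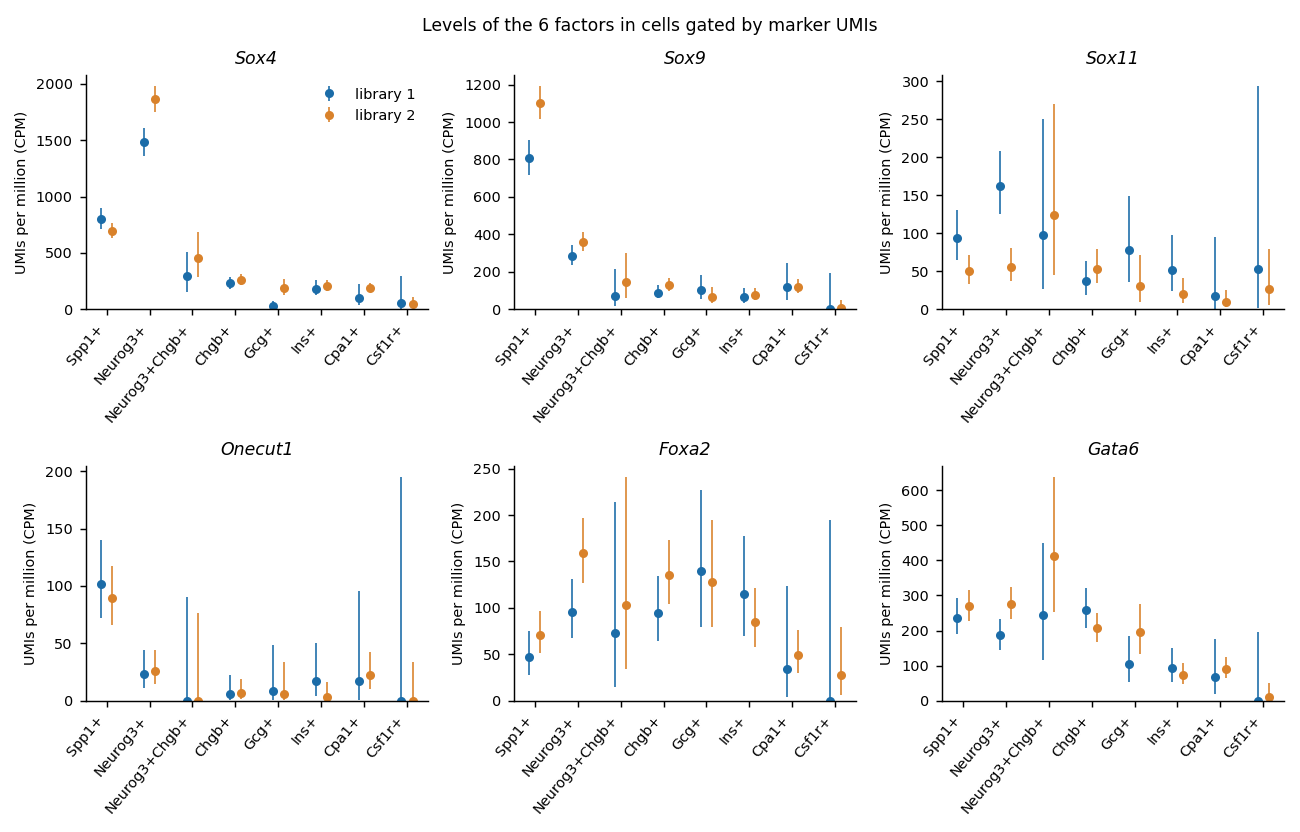
Levels of the 6 factor genes (y axis, CPM of the summed group) in 8 marker-gated cell groups (x axis), with 1 point per library and bars for the 95% exact Poisson interval of the count. Sox4 is highest in Neurog3+ cells of both libraries (1484 and 1865 CPM) and Sox9 in Spp1+ cells (806 and 1103 CPM).

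Sox4, which in mice supports endocrine differentiation, stood at 801 and 696 CPM in Spp1+ cells of libraries 1 and 2 and at 1484 and 1865 CPM in Neurog3+ cells. It stood at 293 and 455 CPM in Neurog3+Chgb+ cells, 232 and 264 CPM in Chgb+ cells, 184 and 207 CPM in Ins+ cells and 26.2 and 188 CPM in Gcg+ cells. It stood at 103 and 189 CPM in Cpa1+ cells and 52.8 and 45.4 CPM in Csf1r+ cells. Neurog3+ cells thus came first and Spp1+ cells next, with no overlap between their libraries or with any other group. Neurog3+Chgb+ cells came next and lay above Chgb+ cells in both libraries, but their counting intervals (151 to 512 CPM and 285 to 688 CPM, from 12 and 22 UMIs) include the Chgb+ level in library 1 and not in library 2. The ranges of Ins+, Gcg+ and Cpa1+ cells overlapped one another.

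Sox9, the trunk and duct factor, stood at 806 and 1103 CPM in Spp1+ cells, 286 and 359 CPM in Neurog3+ cells, 73.2 and 145 CPM in Neurog3+Chgb+ cells and 88.6 and 131 CPM in Chgb+ cells. It stood at 105 and 66.9 CPM in Gcg+ cells, 63.1 and 76.5 CPM in Ins+ cells, 119.9 and 120.3 CPM in Cpa1+ cells and 0 and 9.07 CPM in Csf1r+ cells. Spp1+ cells were apart from every other group in both libraries and so were Neurog3+ cells. Below them, the range of Neurog3+Chgb+ cells overlapped those of Chgb+, Gcg+, Ins+ and Cpa1+ cells.

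Sox11, the close relative of Sox4, differed between the libraries. Over all kept cells it stood at 95.1 CPM in library 1 (95% exact Poisson interval 81.5 to 110 CPM) and 48.6 CPM in library 2 (41.4 to 56.7 CPM). It stood at 93.6 and 49.8 CPM in Spp1+ cells, 163 and 56.1 CPM in Neurog3+ cells, 97.6 and 124 CPM in Neurog3+Chgb+ cells and 36.7 and 53.6 CPM in Chgb+ cells. It stood at 78.6 and 30.4 CPM in Gcg+ cells, 51.6 and 19.8 CPM in Ins+ cells, 17.1 and 9.82 CPM in Cpa1+ cells and 52.8 and 27.2 CPM in Csf1r+ cells. In order of their mean level, the ranges of neighbouring groups overlapped, except that Cpa1+ cells lay below all the others. The Cpa1+ values come from 1 and 4 UMIs, with counting intervals of 0.434 to 95.5 and 2.68 to 25.2 CPM. These intervals overlap those of Ins+ cells (23.6 to 98.0 and 7.97 to 40.8 CPM), so the counts do not separate these groups. The range of Csf1r+ cells, which should lack an epithelial factor, overlapped those of Spp1+, Chgb+, Gcg+ and Ins+ cells.

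Onecut1 was mostly a gene of the Spp1+ group. It stood at 102 and 89.0 CPM in Spp1+ cells, 23.2 and 26.2 CPM in Neurog3+ cells and 17.1 and 22.1 CPM in Cpa1+ cells. The other groups held few counts, with 2 and 3 UMIs in Chgb+ cells (6.11 and 6.43 CPM), 1 UMI in each library of Gcg+ cells and 3 and 1 UMIs in Ins+ cells. Neurog3+Chgb+ cells gave 0 UMIs in both libraries, which at a floor of 3 counts per library allows up to 73.2 and 62.0 CPM. Csf1r+ cells also gave 0, which allows up to 159 and 27.2 CPM. The Spp1+ level lay above those of all the other groups, but in Csf1r+ cells of library 1 the limit is above it, so these could not be separated there. The Neurog3+ and Cpa1+ levels could not be separated at this depth.

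Foxa2 and Gata6 were spread over all epithelial and endocrine groups. Foxa2 stood at 46.8 and 71.2 CPM in Spp1+ cells, 95.5 and 159 CPM in Neurog3+ cells, 73.2 and 103 CPM in Neurog3+Chgb+ cells and 94.7 and 135 CPM in Chgb+ cells. It stood at 139.7 and 128 CPM in Gcg+ cells, 115 and 84.95 CPM in Ins+ cells, 34.3 and 49.1 CPM in Cpa1+ cells and 0 and 27.2 CPM in Csf1r+ cells. Its Neurog3+ range overlapped those of Neurog3+Chgb+, Chgb+, Gcg+ and Ins+ cells, and Spp1+ and Cpa1+ cells lay below all of these and overlapped each other. The Neurog3+Chgb+ values come from 3 and 5 UMIs. Their counting intervals (15.1 to 214 and 33.55 to 241 CPM) include the Spp1+ and Cpa1+ levels, so these were not separated from Neurog3+Chgb+ cells. Gata6, which lies on the plus strand of chromosome 18, stood at 237 and 269 CPM in Spp1+ cells, 186 and 277 CPM in Neurog3+ cells, 244 and 413 CPM in Neurog3+Chgb+ cells and 259.7 and 206 CPM in Chgb+ cells. It stood at 105 and 195 CPM in Gcg+ cells, 91.8 and 73.6 CPM in Ins+ cells, 68.5 and 90.9 CPM in Cpa1+ cells and 0 and 9.07 CPM in Csf1r+ cells. The first 4 of these groups overlapped, and Ins+ and Cpa1+ cells were below them and overlapped each other.

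**Figure D2:**
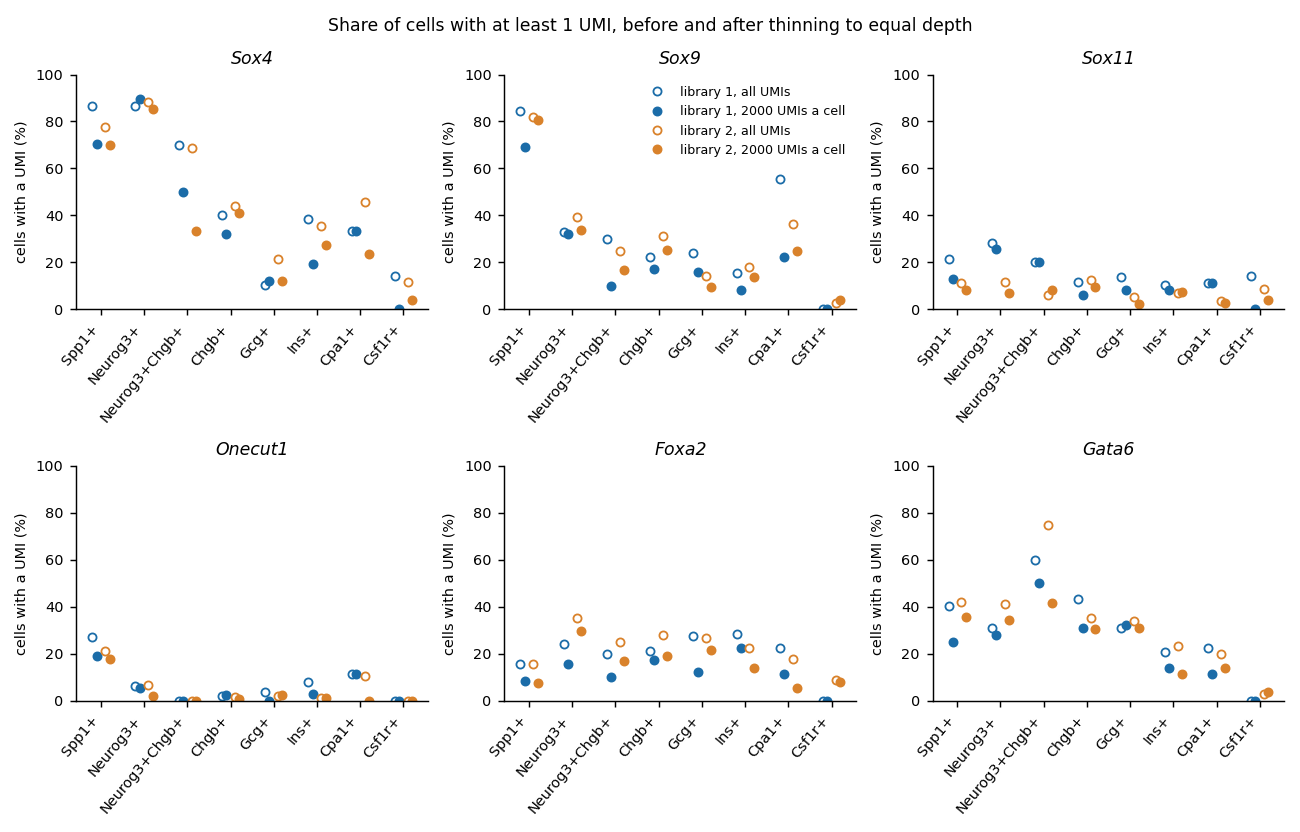
Share of cells with at least 1 UMI of each factor gene (y axis, percent) in 8 marker-gated groups (x axis), by library. Open points are for all UMIs, and filled points are for cells of at least 2000 UMIs after thinning to 2000 UMIs. After thinning, Sox4 was found in 89.7% and 85.2% of Neurog3+ cells and Sox9 in 69.0% and 80.8% of Spp1+ cells.

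Shares of cells with a UMI were counted beside the levels. A Sox4 UMI was found in 86.7% and 88.3% of Neurog3+ cells and in 86.5% and 77.7% of Spp1+ cells. The share was 14.3% and 11.4% in Csf1r+ cells, the type taken as background. The median depths were 2922 and 2767 UMIs per Neurog3+ cell, 3890 and 2814.5 per Spp1+ cell and 2724 and 2970 per Csf1r+ cell. For thinned shares, cells under 2000 UMIs were left out and the others thinned to 2000 UMIs, so these shares are over fewer cells. The cells deep enough were 97 and 142 Neurog3+, 84 and 146 Spp1+ and 5 and 26 Csf1r+ cells. The thinned Sox4 shares were 89.7% and 85.2% of Neurog3+ cells, 70.2% and 69.9% of Spp1+ cells and 0% and 3.85% of Csf1r+ cells. The Gcg+ share, 10.3% and 21.4% before thinning, lay at or near that background in library 1. A Sox9 UMI was found in 32.7% and 39.4% of Neurog3+ cells, 84.3% and 81.9% of Spp1+ cells and 0% and 2.86% of Csf1r+ cells, and thinning left 32.0% and 33.8%, 69.0% and 80.8%, and 0% and 3.85%. In Csf1r+ cells of library 1 the count of 0 among 7 cells allows a share of up to 42.9%.

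The scarcer genes were seen in a minority of cells everywhere except Gata6 in Neurog3+Chgb+ cells (60.0% and 75.0%, thinned, 50% and 41.7%). Onecut1 was found in 6.19% and 6.67% of Neurog3+ cells (thinned, 5.15% and 2.11%) and 27.0% and 21.3% of Spp1+ cells (thinned, 19.0% and 17.8%). Foxa2 was found in 23.9% and 35.0% of Neurog3+ cells (thinned, 15.5% and 29.6%) and 15.7% and 15.4% of Spp1+ cells (thinned, 8.33% and 7.53%). In Csf1r+ cells the Foxa2 share was 0% and 8.57% (thinned, 0% and 7.69%), so the thinned Spp1+ share of library 2 is at the background. Sox11 was found in 28.3% and 11.7% of Neurog3+ cells (thinned, 25.8% and 7.04%) and in 14.3% and 8.57% of Csf1r+ cells (thinned, 0% and 3.85%), and in both libraries the counting intervals of these groups overlap. Intervals and floors here cover counting error only.

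The first comparison set Neurog3+ cells against Spp1+ cells. All cells are of E14.5, so steps, rises and falls here are differences between gated groups, not changes followed over time. Sox4 and Foxa2 rose and Sox9 and Onecut1 fell. Sox4 was higher by 1.17 ± 0.17 on the log2 scale (SE; edgeR quasi-likelihood, Benjamini-Hochberg adjusted p = 9.32e-10), with 0.91 in library 1 alone and 1.43 in library 2 alone. Sox9 changed by -1.54 ± 0.20 (adjusted p = 1.02e-11), with -1.47 and -1.61 in the libraries. Onecut1 changed by -1.89 ± 0.46 (adjusted p = 0.00143), from 23 UMIs in Neurog3+ cells and 87 in Spp1+ cells, and Foxa2 by 1.11 ± 0.33 (adjusted p = 0.0168), from 122 and 57 UMIs. Neither Sox11 (0.56 ± 0.35, adjusted p = 0.470) nor Gata6 (-0.11 ± 0.24, adjusted p = 0.907) passed, and the Gata6 fold had opposite signs in the libraries. Thus 2 of the 6 genes were called higher and 2 lower, where 4.29% of all genes tested were called higher and 3.1% lower.

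The only replication behind the p-values of all comparisons is these 2 libraries, whose differences may be technical. In edgeR the variation was estimated jointly over genes and group sums, so a p-value does not measure the gene's own spread between libraries. For example, Sox4 in Gcg+ against Chgb+ cells had an SE of 0.28, with folds of -3.01 and -0.43 in libraries 1 and 2. Markers of other states moved with the step from Spp1+ to Neurog3+ cells. The 10 listed cycling genes summed to 599 and 602 CPM in Neurog3+ cells and 1255 and 1335 CPM in Spp1+ cells, all 10 above 0 in both. With cells of 3 or more cycling UMIs left out, an alternative added after seeing the data, the log2 fold changes were 1.16 for Sox4, -1.95 for Sox9, -2.37 for Onecut1 and 1.21 for Foxa2, all still called. The 10 listed mesenchyme genes summed to 379 and 409 CPM in Neurog3+ cells and 809 and 746 CPM in Spp1+ cells, mostly Vim (178 and 239 against 630.3 and 603 CPM), with Twist1 at 0 in Neurog3+ cells of library 2. Their part in the result was not tested. The Foxa2 call was lost with DESeq2 (adjusted p = 0.151) and with stricter or looser gates (edgeR, 0.0765 and 0.0867). The Onecut1 call was lost with DESeq2 (0.0958) and after thinning with cells gated again (edgeR, 0.0677).

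**Figure D3:**
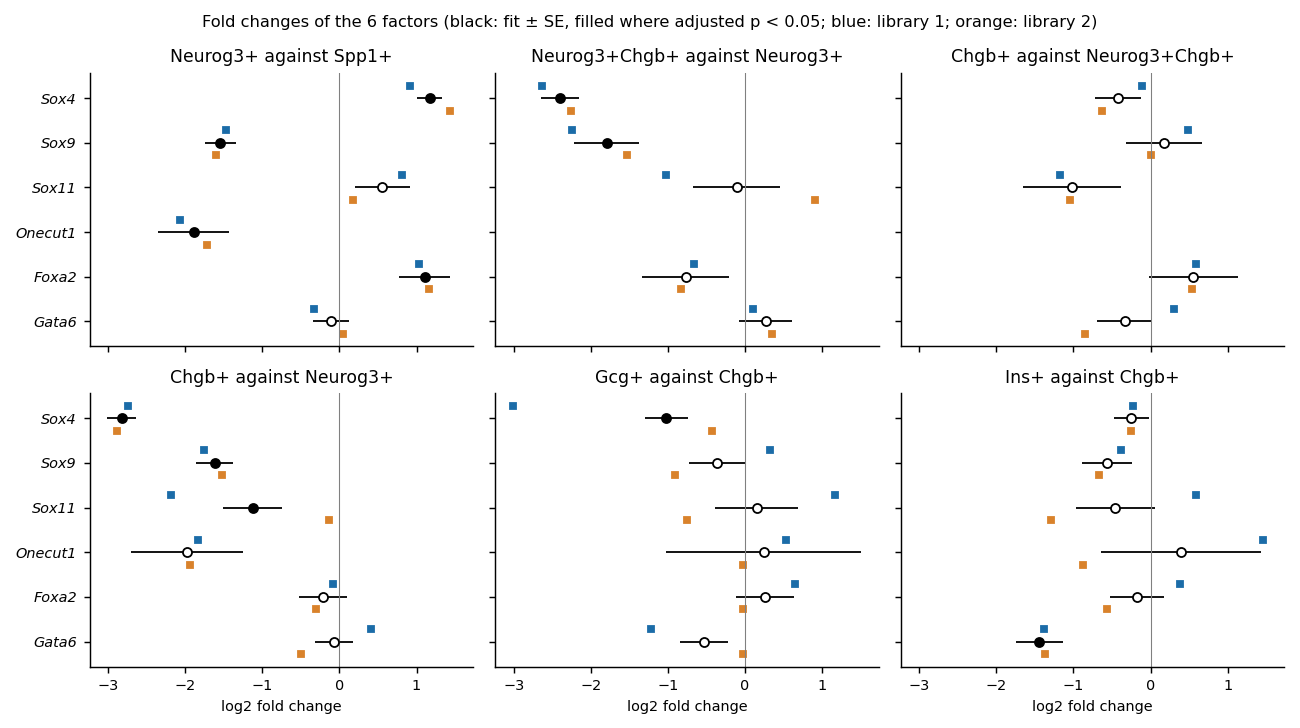
Log2 fold changes (x axis) of the 6 factor genes (y axis) in 6 comparisons of marker-gated groups, first-named group over second. Black points are the edgeR estimate ± SE, filled where the adjusted p was below 0.05, and blue and orange squares are the folds of library 1 and library 2 alone. Sox4 is at 1.17 at the first step and at -2.40 at the second, and Onecut1 is not drawn where 1 group had 0 UMIs.

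The gates left a mixed Neurog3+ group. Of its cells, 25 in library 1 and 52 in library 2 also had 5 or more Spp1 UMIs, and 88 and 128 had fewer. This division was examined with results known and is a description. Sox9 stood at 587 and 649 CPM in the cells with Spp1 and at 153 and 202 CPM in those with little or none. Onecut1 stood at 50.3 and 58.5 CPM against 11.2 and 8.64 CPM, from 6 and 11 UMIs against 3 and 3. Both genes were therefore several-fold higher in the cells with 5 or more Spp1 UMIs, in both libraries, though the Onecut1 counting intervals meet (18.5 to 109 CPM against 2.31 to 32.7 CPM in library 1). Sox4 differed far less and in opposite directions in the libraries, with 1442 and 2096 CPM in the cells with Spp1 and 1502 and 1740.5 CPM in the rest. Foxa2 was lower in the cells with Spp1 in library 1 (58.7 against 112 CPM) and higher in library 2 (181 against 147 CPM). The cells with Spp1 were also deeper, at a median of 4385 and 3445 UMIs against 2830.5 and 2512.5. When the cells with Spp1 were left out, Sox9 changed by -2.40 and Onecut1 by -3.20 between Neurog3+ and Spp1+ cells. Larger falls of these genes are set by the division, since the cells left out were those in which both were higher. Sox4 (1.13) and Foxa2 (1.13) kept nearly the same fold.

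**Figure D4:**
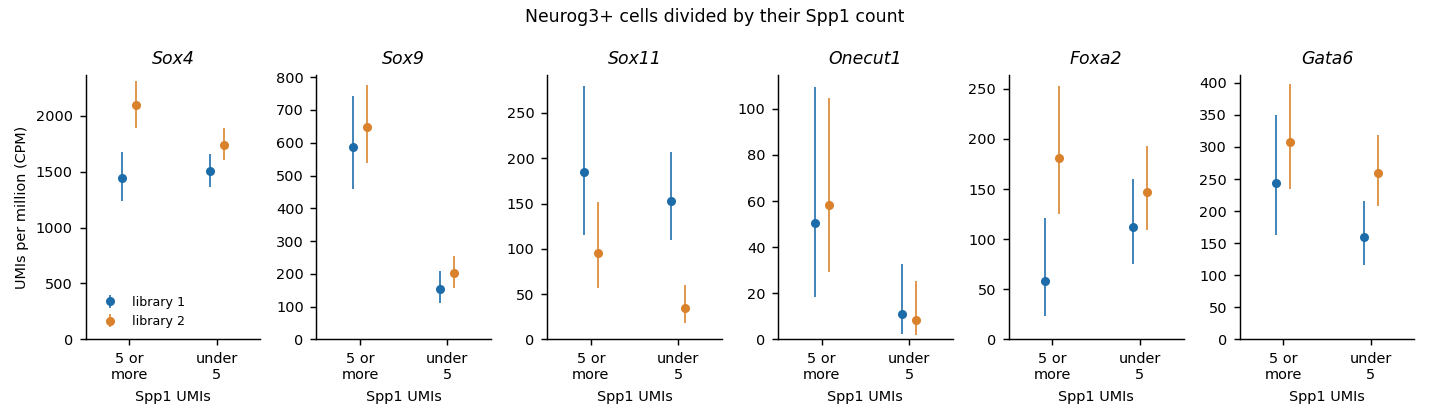
Levels of the 6 factor genes (y axis, CPM) in Neurog3+ cells with 5 or more Spp1 UMIs and in Neurog3+ cells with under 5 (x axis), with 1 point per library and 95% exact Poisson intervals. Sox9 is at 587 and 649 CPM in the cells with Spp1 and at 153 and 202 CPM in the others, while Sox4 is at 1442 and 2096 CPM against 1502 and 1740.5 CPM.

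Finer bins of Neurog3 were taken among cells with under 3 Chgb UMIs that met no other gate and had 5 or more Spp1 UMIs or any Neurog3 UMI. Sox4 stood at 707 and 693 CPM in cells with 0 Neurog3 UMIs, 921 and 813 CPM with 1 to 2, 1326 and 1590 CPM with 3 to 9, and 1663 and 2245 CPM with 10 or more. Its level was higher in each bin than in the one before, in both libraries. Sox9 stood at 879 and 1022 CPM, 367 and 895 CPM, 349.6 and 477 CPM, and 215 and 196 CPM over the same bins, which is lower at each bin in both libraries. The bin of 0 Neurog3 UMIs holds only cells with 5 or more Spp1 UMIs and the others do not, so the first drop in Sox9, which was higher in cells with Spp1, is in part set by how the bins were made. The libraries were farthest apart at 1 to 2 UMIs, where library 1 was close to its own level at 3 to 9. Onecut1 stood at 111 and 107 CPM, 50.8 and 27.6 CPM, 29.1 and 38.7 CPM, and 16.5 and 8.89 CPM, the last from 3 and 2 UMIs, and in library 2 the third bin was above the second. The first drop in Onecut1, which was also higher in cells with Spp1, is likewise in part set by how the bins were made. Foxa2 stood at 57.1 and 78.1 CPM, 79.1 and 86.8 CPM, 77.7 and 161 CPM, and 116 and 156 CPM over the bins. It was thus higher in the last bin than in the first, but did not rise at each bin in either library. Gata6 followed no one direction, with 254 and 298 CPM in the first bin, 204 and 342 CPM at 3 to 9 UMIs and 165 and 187 CPM in the last. Sox11 stood at 92.9 and 41.5 CPM in the first bin and 204 and 48.9 CPM in the last, and in library 2 the 4 bins lay between 41.5 and 63.1 CPM. A raw Neurog3 count also grows with depth, and the median UMIs per cell over these bins were 4110, 2761, 2699.5 and 3742 in library 1 and 2765, 2454, 2522 and 3103 in library 2. Neurog3 itself stood at 158.5 and 63.5 CPM in Csf1r+ cells, the type taken as background, and at 68.8 and 105 CPM in Spp1+ cells. How far the bin of 1 to 2 UMIs rests on stray Neurog3 counts was not tested. These bins share most of their cells with the comparison of Neurog3+ and Spp1+ cells, so they are no separate evidence.

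**Figure D5:**
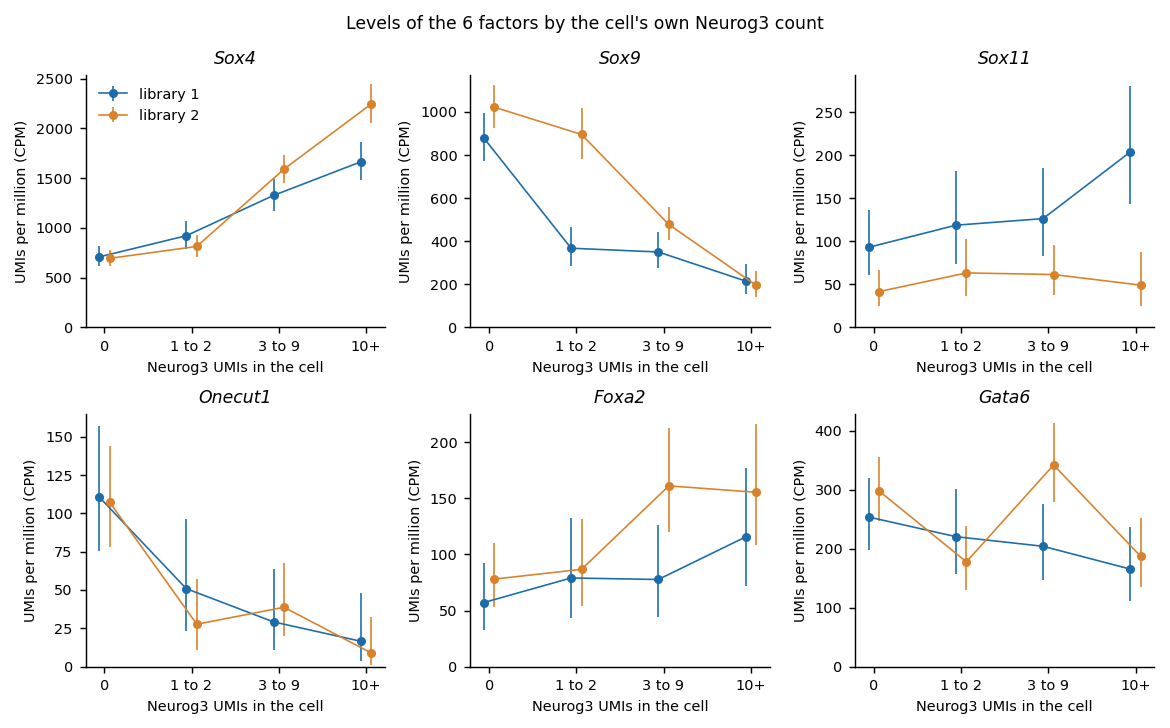
Levels of the 6 factor genes (y axis, CPM) by the number of Neurog3 UMIs in the cell (x axis, 4 bins), with 1 line per library and 95% exact Poisson intervals. Sox4 runs to 1663 and 2245 CPM in the top bin, and Sox9 to 215 and 196 CPM.

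A Sox4 UMI was found at a similar share in Neurog3+ cells with and without Sox9. Of Neurog3+ cells with a Sox9 UMI, 86.5% and 87.3% also had a Sox4 UMI, and of those without one 86.8% and 89.0% did. The cells with a Sox9 UMI were deeper, at a median of 4265 and 3171 UMIs against 2761 and 2522.

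The second step set Neurog3+Chgb+ cells, with 34 Sox4 UMIs in all, against Neurog3+ cells, with 1573. Sox4 fell, as did Sox9. Sox4 changed by -2.40 ± 0.25 (edgeR adjusted p = 9.31e-18), with -2.63 and -2.26 in libraries 1 and 2 alone, and Sox9 by -1.79 ± 0.42 (adjusted p = 0.00237), from 10 UMIs against 303. The values of the other members that could be fitted were -0.77 ± 0.57 for Foxa2, 0.27 ± 0.35 for Gata6 and -0.11 ± 0.57 for Sox11 (adjusted p of 0.616, 0.823 and 0.970). Onecut1, at 0 UMIs in 26 cells, allowed no fold, since its Neurog3+ level lies under the limit that count allows. So 2 of the 6 genes were called lower, where 1.53% of all genes tested were called lower and 0.781% higher. The median log2 fold change of all genes was -0.27 here with TMM scaling and -0.15 with the scaling factors of the RLE kind, and 83 genes were called higher and 163 lower with the first scaling and 106 and 119 with the second. The Sox9 call was lost when Neurog3+ cells with 5 or more Spp1 UMIs were left out (-0.94, adjusted p = 0.382). The 10 cycling genes summed to 171 and 951 CPM in Neurog3+Chgb+ cells, 6 and 9 of them above 0, against 599 and 602 CPM in Neurog3+ cells. The hormone gene Pyy stood at 4760 and 2129 CPM in Neurog3+Chgb+ cells, against 165 and 351 CPM in Neurog3+ cells, and Sst, the somatostatin gene, at 24.4 and 1695 CPM against 661 and 50.5 CPM. Of the 10 and 16 Neurog3+Chgb+ cells, 8 and 14 had under 5 UMIs of Pyy and of the hormone gene Ghrl. The part of cycling and hormone cells in the result was not tested.

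Chgb+ cells were then set against Neurog3+Chgb+ cells, and 0 of the 6 genes were called by edgeR, with 0 at an unadjusted p under 0.05 and 0 called by DESeq2, which gave no adjusted p for Sox11 and Onecut1. Sox4 changed by -0.42 ± 0.29 (edgeR adjusted p = 0.654) and Sox9 by 0.17 ± 0.49 (adjusted p = 0.942), with standard errors that leave room for a further change. The small group of 10 and 16 cells limits this comparison, in which 0.508% of all genes tested were called higher and 0.151% lower. With the RLE factors the split of calls was 33 higher and 29 lower, against 54 and 16, and the median of all genes was 0.13 against 0.26.

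Over the whole span, Chgb+ against Neurog3+ cells, Sox4 and Sox9 fell. Sox4 changed by -2.82 ± 0.19 (edgeR adjusted p = 1.70e-41), with -2.74 and -2.89 in libraries 1 and 2, and Sox9 by -1.62 ± 0.24 (adjusted p = 3.23e-09), with -1.75 and -1.52. Without the Neurog3+ cells that had 5 or more Spp1 UMIs, the Sox9 change was -0.79 (adjusted p = 0.0485) and the Sox4 change -2.81. Sox11 changed by -1.12 ± 0.38 (adjusted p = 0.0366), but this rests on library 1, where the fold was -2.19, against -0.13 in library 2, and the call held in 2 of 12 alternatives. Onecut1 changed by -1.98 ± 0.73 and missed the threshold (adjusted p = 0.0605), from 5 UMIs in Chgb+ cells and 23 in Neurog3+ cells. Foxa2 (-0.22 ± 0.31, adjusted p = 0.781) and Gata6 (-0.07 ± 0.24, adjusted p = 0.928) did not pass. In all, 3 of the 6 genes were called lower, where 5.94% of all genes tested were called lower and 4.37% higher. The 10 cycling genes summed to 403 and 317 CPM in Chgb+ cells, and without cycling cells the Sox4 and Sox9 calls remained. Pyy stood at 1628 and 2771 CPM in Chgb+ cells, against 165 and 351 CPM in Neurog3+ cells, and Sst at 229 and 2861 CPM against 661 and 50.5 CPM. Without Chgb+ cells of 5 or more Ghrl or Pyy UMIs the changes were -2.62 for Sox4 and -1.44 for Sox9, both called, and the part of Sst cells was not tested. This comparison shares its Neurog3+ cells with the first and second, and its Chgb+ cells with the comparisons of hormone cells below.

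Hormone cells were compared with Chgb+ cells. In Ins+ cells Gata6 fell, to 91.8 and 73.6 CPM against 259.7 and 206 CPM in Chgb+ cells, with no overlap between the groups. The change was -1.44 ± 0.31 (edgeR adjusted p = 3.95e-04), with -1.38 and -1.37 in libraries 1 and 2. It missed the threshold after thinning to 2000 UMIs with cells gated again (-1.33, edgeR adjusted p = 0.0826). The other 5 genes were not called, with log2 fold changes of -0.25 ± 0.22 for Sox4, -0.56 ± 0.32 for Sox9, -0.46 ± 0.51 for Sox11, -0.17 ± 0.35 for Foxa2 and 0.39 ± 1.04 for Onecut1. The adjusted p-values of these 5 ran from 0.589 to 0.961. This 1 lower gene of 6 stands beside 0.706% of all genes tested called lower and 1.66% called higher.

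In Gcg+ cells Sox4 fell by the test, at -1.02 ± 0.28 (edgeR adjusted p = 0.0308), where 0.489% of all genes tested were called lower and 0.546% higher. That value rests on library 1, with 3 Sox4 UMIs in 29 Gcg+ cells and a fold of -3.01, against -0.43 in library 2, where 31 UMIs were found and 11 of them in 1 cell. The call was lost in 6 of 12 alternatives, among them DESeq2 (adjusted p = 0.367), the fit without library as a term (0.275) and looser gates (-0.56, 0.659). The Gata6 change was -0.53 ± 0.31 (adjusted p = 0.679), and those of Foxa2 (0.26 ± 0.38), Sox9 (-0.36 ± 0.37), Sox11 (0.15 ± 0.54) and Onecut1 (0.24 ± 1.27) had opposite signs in the libraries. The Chgb+ group itself holds cells with the peptide hormone genes Ghrl or Pyy, 24 and 41 cells with 5 or more UMIs of either. In these Sox4 stood at 155 and 141 CPM, against 262 and 321 CPM in the remaining 71 and 109 Chgb+ cells, a division examined with results known. Without them the Sox4 change in Gcg+ cells was -1.26 (edgeR adjusted p = 0.00308).

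Cpa1+ cells could be tested against Spp1+ cells only with looser gates (each UMI threshold halved and rounded up), since at the gates used elsewhere library 1 held 9 Cpa1+ cells. The looser gates gave 12 and 88 Cpa1+ cells and 96 and 188 Spp1+ cells. Sox9 (-2.38 ± 0.28, edgeR adjusted p = 1.35e-10), Sox4 (-1.60 ± 0.24, adjusted p = 4.06e-07) and Gata6 (-1.38 ± 0.34, adjusted p = 0.00339) were lower in Cpa1+ cells. So were Sox11 (-2.40 ± 0.74, adjusted p = 0.0273) and Onecut1 (-1.74 ± 0.54, adjusted p = 0.0296), while Foxa2 did not pass (-0.34 ± 0.47, adjusted p = 0.791). Thus 5 of the 6 genes were called lower, where 3.18% of the 11016 genes tested there were called lower and 4.18% higher. At the gates used elsewhere, Cpa1+ cells of libraries 1 and 2 held 1 and 4 Sox11 UMIs and 1 and 9 Onecut1 UMIs. No alternative setting and no fold of a library alone was run for this comparison, so how far its calls hold was not tested. The 10 acinar markers used summed to 8361 and 15303 CPM in Cpa1+ cells at the usual gates. The 10 cycling genes summed to 2022 and 1955 CPM there, against 1255 and 1335 CPM in Spp1+ cells, and their part in the result was not tested.

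Other factor genes were counted over lists of a family or a role. The counts and medians cover every listed gene that could be tested, whichever way it moved, and only leading called genes are named. Of 16 other Sox genes 5 passed the filter on low counts, and 1 of these 5, Sox6, was lower in Neurog3+ than in Spp1+ cells (-1.37 ± 0.39, edgeR adjusted p = 0.0112). The median of those 5 was -0.55, beside -0.01 over all genes tested. Of 29 other progenitor factor genes 24 could be tested, of which 5 were higher and 8 lower in Neurog3+ than in Spp1+ cells, with a median of -0.32. Hes1, the Notch-induced repressor, changed by -2.06 ± 0.29 (adjusted p = 9.23e-10) and Id2, an inhibitor of helix-loop-helix factors, by -1.66 ± 0.30 (adjusted p = 4.27e-06). The forkhead gene Foxa3, of the same family as Foxa2, changed by 2.57 ± 0.46 (adjusted p = 2.27e-06) and the homeobox gene Prox1 by 0.80 ± 0.23 (adjusted p = 0.0100). In the endocrine factor list 15 of 20 genes were higher at this step, with a median of 2.13, led by Insm1, a zinc-finger factor of endocrine differentiation (3.98 ± 0.21), and the homeobox gene Nkx2-2 (2.69 ± 0.19).

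At the step to Neurog3+Chgb+ cells 3 of 24 progenitor factor genes were lower, with a median of -0.82 beside -0.27 over all genes. Id1, an inhibitor of helix-loop-helix factors, was among them, with 0 UMIs in Neurog3+Chgb+ cells and 121 in Neurog3+ cells. So was Tead2, a DNA-binding partner of YAP (-2.22 ± 0.51, edgeR adjusted p = 0.00202). Of the endocrine factor genes 7 of 20 were higher, led by Fev (4.21 ± 0.32) and Pax6 (2.59 ± 0.29), and 2 were lower, Insm1 (-0.99 ± 0.22) and Hes6 (-1.78 ± 0.41). From Neurog3+Chgb+ to Chgb+ cells 1 of 24 progenitor factor genes was higher, the beta cell and progenitor factor gene Pdx1 (2.40 ± 0.49), which had 7 UMIs in Neurog3+Chgb+ cells, and endocrine factor genes were called in both directions, with Isl1 higher (1.47) and Nkx2-2 lower (-0.93). Between Chgb+ and Neurog3+ cells 2 progenitor factor genes were higher and 6 lower, among them Pdx1 (2.28 ± 0.28) and Tead2 (-3.81 ± 0.36), and 9 endocrine factor genes were higher and 6 lower, among them Pax6 (2.93) and Neurod2 (-3.62).

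In Gcg+ cells 3 of 24 progenitor factor genes were lower than in Chgb+ cells, with Nkx6-1 at -2.64 ± 0.31 and Pdx1 at -2.30 ± 0.36, both factors of the beta lineage. Of the endocrine factor genes 4 were higher and 5 lower, with the alpha cell genes Irx1 (3.61) and Irx2 (3.33) higher and Fev (-2.60) and Insm1 (-1.04) lower. In Ins+ cells 1 progenitor factor gene was lower, Id2 (-2.62 ± 0.50), and of the endocrine factor genes 2 were higher and 7 lower, with Mlxipl (0.85) higher and Fev (-2.92) and Runx1t1 (-2.24) lower. Neighbouring comparisons share a group of cells, so their counts are not independent of one another.

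Patterns over the 8 groups and 2 libraries were compared across 4665 genes of at least 50 CPM on average by Pearson's correlation of log2 levels over the 16 group sums, as a description with no test. The sums share their libraries and differ in depth, and the 2 Csf1r+ sums are low for most of the 6 genes, from few UMIs. Sox9 was most like Serpinh1 (r = 0.95), Nfib (0.94) and Fam234b (0.94), and Onecut1 was most like Gsta3 (0.93), Clu (0.92) and Flrt2 (0.92). Gata6 was most like Grb10 (0.98), Ypel2 (0.98) and Krt8 (0.97), and Foxa2 was most like Cbx6 (0.98), Ptov1 (0.98) and Maged1 (0.98). Sox4 was most like Zfp266 (0.87), Tmem171 (0.87) and Gprc5b (0.84), and Sox11 was most like Smad1 (0.84), Mtm1 (0.80) and Zfp740 (0.79). Without the Csf1r+ sums, a choice made after seeing the data, these 18 correlations lay between 0.77 and 0.96. Among the 6 genes themselves the correlation of Foxa2 and Gata6 was 0.89 over the 16 sums and 0.32 over the 14 without Csf1r+ cells, and that of Sox9 and Gata6 was 0.88 and 0.43. Those of Sox9 with Onecut1 (0.75 and 0.71) and of Sox4 with Sox9 (0.70 and 0.64) moved less.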

How the data were processed

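The deposited tables hold UMI counts per gene symbol and cell barcode for 2 inDrop libraries made with CEL-Seq amplification, per the labels' protocols. The submitters' processing notes name the build GRCm38, and neither aligner, annotation nor strand setting is given in the sources used here. The 6 genes and all gene lists, gates and tests were chosen with earlier results of these data known.

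Cells under 1000 UMIs, under 500 genes or over 20% mitochondrial UMIs were removed, and the doublets that Scrublet (scanpy 1.11.5) called in each library, 13 and 11, were left out too. Levels in CPM are plain counts per 1e6 of a group's summed UMIs, with exact Poisson intervals, and shares have exact binomial intervals, at 95%. A count of 0 was given a floor of 3 counts per library.

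Raw counts were summed per library and group, and the 12 sums of the 6 groups with at least 10 cells in each library were fitted with edgeR 4.0.16 in R 4.3.3 (TMM scaling, filterByExpr, quasi-likelihood test, group and library as terms, 5 residual degrees of freedom). The p-values were adjusted by Benjamini-Hochberg over 10626 genes, with a threshold of 0.05. The comparisons are within libraries, so library is a block by construction. Fold changes thus carry TMM scaling and the CPM levels do not. The fit was tested on simulated data. The alternatives were DESeq2 1.42.0, RLE factors, no filter on low counts, no library term, each library alone, other gates, a minimum of 2000 UMIs per cell, thinning, doublets kept, and left-out cells. Thinning left out cells under 2000 UMIs. For the thinned fit cells were gated again on thinned counts, so the groups changed too, while thinned shares keep the original groups of the cells left. Leaving out cells with 3 or more UMIs over 10 cycling genes was added after seeing the data. Named genes are the 6 members, for each the 3 genes of most similar pattern (log2 of CPM + 1), and the leading called genes of each list in each direction. Gene positions are from GENCODE M21 and promoters from RefSeq. Epcam was not used here.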

Additional observations from a re-analysis of the deposited data

Results flagged for a closer look

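Cells that met no gate were used in no comparison, yet Sox4 and Gata6 were found in them above the level of Csf1r+ cells. Sox4 stood at 470.75 CPM in the 123 such cells of library 1 and at 393.03 CPM in the 257 of library 2, and Gata6 at 269.42 and 156.06 CPM. These values lay above the upper counting limits of Csf1r+ cells, which were 294.4 and 105.8 CPM for Sox4 and 194.9 and 50.5 CPM for Gata6. The same cells held the hormone genes Ghrl (1294 and 1267 CPM), Pyy (1924 and 3618 CPM) and Sst (409 and 3201 CPM). The 10 mesenchyme genes summed to 882 and 2553 CPM and the 10 endothelial genes to 255 and 686 CPM, all above 0. The part of these cell types in the 2 levels was not tested.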

How the results depend on the processing

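The direction and call of Sox4 and Sox9 held under all 12 alternatives in Neurog3+ against Spp1+ cells and in Chgb+ against Neurog3+ cells, with log2 fold changes of 1.10 to 1.21 and -2.40 to -1.45 in the first and -3.02 to -2.62 and -1.67 to -0.79 in the second. Sox4 also kept its call under all 8 alternatives in Neurog3+Chgb+ against Neurog3+ cells (-2.77 to -2.27).

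The number of genes called moved by over 1.5 times as follows. With DESeq2 it was 324 in Neurog3+ against Spp1+ cells (785 with edgeR), 45 in Chgb+ against Neurog3+Chgb+ cells (70), 621 in Chgb+ against Neurog3+ cells (1095), 54 in Gcg+ against Chgb+ cells (110) and 130 in Ins+ against Chgb+ cells (251). With no filter on low counts it was 420 in Neurog3+Chgb+ against Neurog3+ cells (246) and 155 in Chgb+ against Neurog3+Chgb+ cells. Without the replicate block, which fits library as a term, it was 158, 32 and 62 in Neurog3+Chgb+ against Neurog3+, Chgb+ against Neurog3+Chgb+ and Gcg+ against Chgb+ cells. With looser gates it was 34 in Chgb+ against Neurog3+Chgb+ cells and 62 in Gcg+ against Chgb+ cells. Thinning leaves fewer counts, and cells were gated again on the thinned counts, so the groups changed too. Neurog3+ cells numbered 84 and 119 after it, against 97 and 142 among unthinned cells of at least 2000 UMIs. With thinning the number called was 649 in Chgb+ against Neurog3+ cells, 57 in Gcg+ against Chgb+ cells and 124 in Ins+ against Chgb+ cells. Without Ghrl or Pyy cells it was 183 in Gcg+ against Chgb+ cells.

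Calls lost, for which the cause was not tested, had these log2 fold changes. In Neurog3+ against Spp1+ cells they were Onecut1 with DESeq2 (-1.95) and thinned (-2.13), and Foxa2 with DESeq2 (1.07), stricter gates (0.96) and looser gates (0.98). In Neurog3+Chgb+ against Neurog3+ cells it was Sox9 without cells of 5 or more Spp1 UMIs (-0.94). In Chgb+ against Neurog3+ cells Sox11 lost its call with DESeq2 (-1.12), no filter (-1.16), no replicate block (-1.26), stricter (-0.91) and looser gates (-0.95), thinning (-0.89), doublets kept (-0.97), and without Spp1 cells (-0.89), Ghrl or Pyy cells (-1.09) or cycling cells (-1.02). In Gcg+ against Chgb+ cells Sox4 lost its call with DESeq2 (-1.06), no replicate block (-1.01), stricter (-0.92) and looser gates (-0.56), thinning (-0.76) and without cycling cells (-1.004). Gata6 in Ins+ against Chgb+ cells lost its call thinned (-1.33). With 1 library left out there is no test, and the values ran from -3.01 to -0.43 for Sox4 in Gcg+ against Chgb+ cells and from -1.38 to -1.37 for Gata6 in Ins+ against Chgb+ cells.

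Changes of sign were found only among uncalled results. For Gata6 they were 0.041 without cycling cells in Neurog3+ against Spp1+ cells, -0.10 with no filter and -0.060 at 2000 UMIs or more in Neurog3+Chgb+ against Neurog3+ cells, 0.0040 with no filter in Chgb+ against Neurog3+Chgb+ cells, and 0.066, 0.040 and 0.046 with looser gates, without Spp1 cells and without cycling cells in Chgb+ against Neurog3+ cells. For Sox11 they were 0.018 with RLE factors, 0.052 with DESeq2, 0.10 with doublets kept and 0.15 without Spp1 cells in Neurog3+Chgb+ against Neurog3+ cells. They were -0.018 with no filter, -0.72 thinned and -0.0098 with doublets kept in Gcg+ against Chgb+ cells, and 0.025 thinned in Ins+ against Chgb+ cells. The rest were Sox9 with looser gates (0.51) and Onecut1 without Ghrl or Pyy cells (-0.27) or cycling cells (-0.69) in Gcg+ against Chgb+ cells, and in Ins+ against Chgb+ cells Onecut1 without Ghrl or Pyy cells (-0.082) and Foxa2 with stricter gates (0.049).

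Comparisons of Neurog3+Chgb+ cells under stricter gates, thinning, or without Ghrl or Pyy cells or cycling cells were not run, since under 10 cells of a library were left, and Onecut1 was not compared there, at 0 UMIs. Low counts limit Onecut1 and every Neurog3+Chgb+ value.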
